A study of Mus musculus with 10 samples.

Results

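D-type cyclins, the kinases they activate and the CDK inhibitors that restrain them were followed in mouse liver with and without Gnmt. The 10 genes were Ccnd1, Ccnd2, Ccnd3, Cdk4, Cdk6, Cdkn1b, Cdkn1c, Cdkn2a, Cdkn2b and Cdkn2c, and they are 10 of the 18193 genes that the arrays could name. Together they had 25 probe sets, short stretches of a transcript measured as 1 signal each, and the one with the highest mean over the 10 arrays stood for its gene. A gene was tested where that mean lay above the median of all values, and 9 of the 10 genes did so, among 11032 genes in all. Cdkn2a did not, and its signals are given without a test. Cdkn2b passed by a margin that left it at the filter, with a mean equal to a signal of 91.0, and it passed only through its 3 lesion signals, so passing the filter and standing high in lesions are not independent for it. Cdkn1c lay just above the filter (a mean equal to a signal of 104.3) and Cdkn2a below it (21.3).

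The study used 10 Affymetrix arrays of liver RNA from mice of a 129/B6 background. At 11 weeks there were 2 wild-type and 2 Gnmt knockout arrays, with 1 female and 1 male array per genotype, and each held equal amounts of RNA from 3 mice. Aged Gnmt knockout mice gave 6 arrays, 1 tissue each. A female of 21 months gave a dysplastic nodule, a male of 18 months a hepatocellular carcinoma (HCC), and a female of 14 months another HCC, each with liver from beside the lesion. No treatment is named in the labels. Every aged array carried the knockout, so age, pooling and nearness to a lesion differ together from the young arrays, and no aged wild-type liver was analysed here. Lesion and adjacent liver were paired by equal sex and age, a pairing inferred from the labels, which number no mice. Each array is whole tissue, so fewer cells of a type and less RNA per cell cannot be told apart. The p-values measure the spread between these few pools and tissues, with each gene's variance drawn toward that of genes of like signal. The spread between the mice within a pool is not seen.

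Gnmt encodes glycine N-methyltransferase, a liver enzyme that uses S-adenosylmethionine. Wild-type pools read 59472.6 and 52139.9 for Gnmt, and the 8 knockout arrays between 11.7 and 329.4. Hepatocyte markers (4 of 5 on the array) summed to between 211190.7 and 351725.5 on every array. Median signals ran from 77.4 to 102.4. Spearman correlations between arrays were 0.815 to 0.894. Hybridisation spikes parted young from aged arrays, with ratios of the 3' probe sets of BioC to BioB between 3.9 and 5.09 at 11 weeks and between 1.45 and 1.84 in the aged tissues.

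D-type cyclins are the part of the cell cycle engine that answers to growth signals. They bind Cdk4 or Cdk6, and the complexes phosphorylate RB, which frees E2F factors to switch on genes of S phase. The INK4 inhibitors, encoded by Cdkn2a, Cdkn2b and Cdkn2c, bind Cdk4 and Cdk6 and keep cyclin D off. The Cip/Kip inhibitors p27 (Cdkn1b) and p57 (Cdkn1c) block later cyclin-CDK complexes as well. In liver, Ccnd1 is the D-type cyclin known for its induction when hepatocytes leave rest, for example after partial removal of the organ.

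Cdkn2b and Cdkn2a are neighbours, and their starts are shown because Cdkn2b had the largest lesion differences of the 10 genes while Cdkn2a stayed at low signals. RefSeq sequences of build GRCm38.p6 were used, each of 250 bases ending just before a transcript start on the minus strand, printed 5′ to 3′. The sequence before the Cdkn2b start occupies chr4:89311033-89311282. The far start of Cdkn2a gives the p19Arf transcript, and the sequence before it occupies chr4:89294620-89294869. The near start of Cdkn2a gives the p16Ink4a transcript, and the sequence before it occupies chr4:89282193-89282442. Capitals mark a match to a searched motif.
Cdkn2b: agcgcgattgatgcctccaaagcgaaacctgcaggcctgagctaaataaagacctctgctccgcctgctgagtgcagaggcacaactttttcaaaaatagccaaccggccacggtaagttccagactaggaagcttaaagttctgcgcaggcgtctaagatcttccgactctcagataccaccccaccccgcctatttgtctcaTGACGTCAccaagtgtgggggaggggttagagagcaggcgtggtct
Cdkn2a, far start: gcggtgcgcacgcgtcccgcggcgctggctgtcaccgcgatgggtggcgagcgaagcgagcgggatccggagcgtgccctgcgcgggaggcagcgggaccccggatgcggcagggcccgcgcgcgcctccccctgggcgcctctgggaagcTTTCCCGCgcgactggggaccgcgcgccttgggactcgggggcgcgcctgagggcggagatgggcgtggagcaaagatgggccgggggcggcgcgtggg
Cdkn2a, near start: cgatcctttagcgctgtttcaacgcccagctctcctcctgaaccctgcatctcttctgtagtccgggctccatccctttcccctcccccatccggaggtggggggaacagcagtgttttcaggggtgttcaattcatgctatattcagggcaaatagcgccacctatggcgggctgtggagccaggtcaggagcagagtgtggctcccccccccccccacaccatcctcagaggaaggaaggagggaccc
Far and near are counted from the end of the Cdkn2a gene, so the far start is the one closer to Cdkn2b. The start of Cdkn2b lies 16.4 kb from the far and 28.8 kb from the near start of Cdkn2a. The Cdkn2b window holds the cyclic AMP response element TGACGTCA 46 bases before the start. The far Cdkn2a window holds the E2F word TTTCCCGC 99 bases before its start. The near window holds none of the searched motifs. They were E2F (TTTGGCGC, TTTCCCGC and TTTCGCGC), CRE (TGACGTCA), TCF (CTTTGAT and CTTTGAA) and FOXO (GTAAACA), read on both strands. The search took whole windows, which for these genes hold 300 bases, the 250 before a start and the rest after it. Among 32851 RefSeq promoter windows searched in the same way, 1.84% held an E2F word, 1.79% the CRE, 8.65% a TCF word and 3.65% the FOXO word. RefSeq windows were at hand for 7 of the 10 genes. Cdk4 had the TCF word CTTTGAT 52 bases before its start on the other strand, and Ccnd3 the FOXO word 243 bases before a start, also on the other strand. The windows of Cdk6, Cdkn1b and Cdkn2c held no match. These are matches of letters and say nothing of binding.

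Among the cyclins, Ccnd1 was the member with the clear genotype difference. Wild-type liver had signals of 876.7 (female) and 687.7 (male), and young knockout liver 7367.9 (female) and 4849.8 (male). In the aged knockout tissues they were 8984.2 in adjacent liver and 2882.1 in the nodule of the 21-month female, 10050.5 and 7816.5 in adjacent liver and HCC of the 18-month male, and 2992.9 and 2734.3 in adjacent liver and HCC of the 14-month female. All 8 knockout arrays lay above both wild-type pools without overlap, which 8.05% of the 11032 tested genes did, and no tested member lay below both, where 7.23% of genes did.

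The first comparison asked which of these genes differ without Gnmt at 11 weeks, before lesions. Ccnd1 rose by 2.92 ± 0.22 (SE, log2 of signal plus 16.8, n = 2 pools per genotype, limma adjusted p = 0.00894), a fold of 7.56 on that scale. The rise was 3.05 in females and 2.79 in males. It was the single member called at an adjusted p below 0.05, of 9 tested. Over all tested genes, 0.707% were called higher and 0.743% lower, 1.45% in either direction. At an unadjusted p below 0.05 there was also 1 member, where 19.5% of all genes were. A difference of at least 1 log2 unit upward in both sexes was seen in Ccnd1 and in 1.79% of all genes. The same step downward was seen in 0 members and in 1.76% of all genes. By p, Ccnd1 had rank 3 of 11032, with Gnmt at rank 1. The median of the 9 genes was 0.01, beside -0.05 over all tested genes.

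The call on Ccnd1 rested on a test with 1 residual degree of freedom. Its adjusted p was 0.173 without the intensity trend in the variance, 0.184 in a model over all 10 arrays and 0.0532 without the sex term. In the model over all remaining arrays, the difference was 2.25 to 3.58 when any young pool was left out, with adjusted p from 0.312 to 0.791. The other 2 Ccnd1 probe sets differed in the same direction, by 2.47 and 3.02 in females and by 1.87 and 2.57 in males. Endothelial markers (7 of 7 on the array, 6 past the filter) summed to 7850.2 to 10738.2 in wild-type and 4060.5 to 4096.4 in knockout pools. Macrophage and Kupffer markers (7 of 7, all past the filter) summed to 11275.2 to 18186.8 in wild-type and 9057.1 to 10578.5 in knockout pools. T and NK cell markers (6 of 7, 1 past the filter) summed to 417.7 to 423.3 and 337.8 to 363.3. In that list Nkg7 went the other way, at 5.3 and 7.3 in wild-type and 51.8 and 135.1 in knockout pools, female before male. Cd4 also read higher in the knockout pool of each sex. The 3' to 5' ratio of Actb was 2.62 and 2.60 in wild-type and 3.18 and 3.38 in knockout pools. Whether any of these has a part in the Ccnd1 difference was not tested.

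By group mean, Ccnd1 stood highest in adjacent liver (7342.5 ± 3804.4, SD, n = 3), then in young knockout liver (6108.8 ± 1780.6, n = 2), HCC (5275.4 ± 3593.7, n = 2), the nodule (2882.1) and wild-type liver (782.2 ± 133.6, n = 2). Neighbours in that order overlapped, apart from wild-type liver, which lay below every other array. The aged signals fell in 2 ranges that did not follow tissue type. Both tissues of the 14-month female and the nodule lay between 2734.3 and 2992.9, and the remaining 3 aged arrays between 7816.5 and 10050.5.

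**Figure D1:**
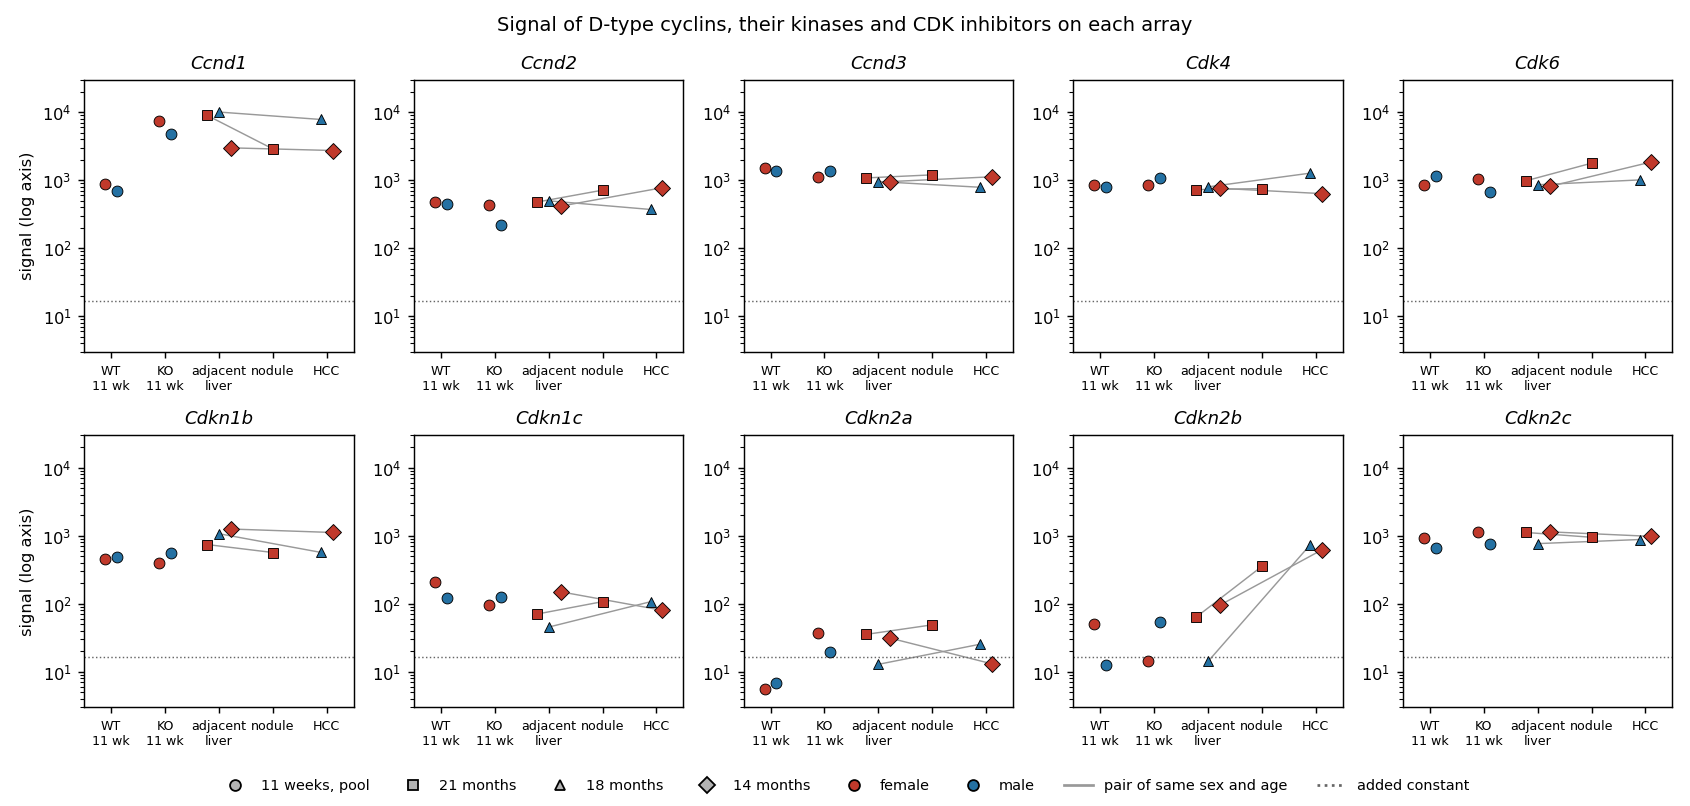
Signal (log axis) of the 10 genes on each of the 10 arrays, by group, with sex as colour and age as marker shape. Grey lines join lesion and adjacent liver of equal sex and age, and the dotted line is the added constant of 16.8. Ccnd1 is lowest in the 2 wild-type pools, and Cdkn2b is highest in the 3 lesions.

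Ccnd2, the D-type cyclin best known from gonads, blood and pancreatic islet cells, did not follow Ccnd1. Its signals at 11 weeks were 482.1 and 447.4 in wild-type and 439.7 and 216.8 in knockout liver, in each case female before male. The male knockout pool was the lowest of all 10 arrays. The genotype difference was -0.56 ± 0.30 (limma adjusted p = 0.353), at -0.13 in females and -0.99 in males. In the lesions Ccnd2 was at 714.7 (nodule), 371.8 (male HCC) and 776.6 (female HCC), against 477.2, 498.2 and 415.8 in their adjacent livers. The signals of the nodule and of the female HCC were the highest of the 10 arrays, and that of the male HCC was below its adjacent liver. The lesion difference was 0.34 ± 0.29 (adjusted p = 0.736, 3 pairs). Of the other 6 Ccnd2 probe sets, 4 had signals of 115.2 to 658.2 and were higher in the female HCC than in its adjacent liver, by 0.30 to 1.05. They did not share a direction in the other pairs, at -0.29 to 0.85 in the nodule pair and -0.39 to 0.14 in the male pair. The remaining 2 ran from 2.2 to 76.0, near the added constant.

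Ccnd3, a D-type cyclin known for its part in lymphocytes, varied little. Its signals were 1510.0 and 1350.9 in wild-type, 1108.2 and 1378.0 in knockout (female before male), and between 787.9 and 1199.4 in the 6 aged tissues. The differences were -0.21 ± 0.24 for genotype and 0.03 ± 0.20 for lesions, and neither passed. The remaining Ccnd3 probe sets were dim, at 9.9 to 106.1, and in the lesion pairs 1 of them read -1.40, -1.47 and -0.36 in the 14-month, 21-month and 18-month pairs. The brighter probe set read 0.23, 0.15 and -0.27, so the signs were opposite in the first 2 pairs and equal in the 18-month pair.

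The kinases differed from each other in the lesions. Cdk6 had signals of 1780.9 in the nodule, 1010.6 in the male HCC and 1856.7 in the female HCC, against 980.3, 858.7 and 810.1 in their adjacent livers. Each lesion was above its own adjacent liver, and the nodule and female HCC were above every other array. In the young pools Cdk6 read 843.9 and 1137.1 in wild-type and 1055.9 and 670.8 in knockout liver, female before male, which overlap (-0.21 ± 0.30, adjusted p = 0.743). The lesion difference was 0.75 ± 0.23 (limma adjusted p = 0.383, unadjusted p = 0.0161, 3 pairs), made up of 0.85, 0.23 and 1.18. It did not pass, and it was 0.32 with the mean of all Cdk6 probe sets. The next brightest Cdk6 probe set differed by 0.29, -0.07 and 0.32 in the same pairs.

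Cdk4 read 853.6 and 794.0 in wild-type and 841.6 and 1084.0 in knockout liver, female before male (0.21 ± 0.24, adjusted p = 0.677). The highest value was 1269.5 in the male HCC, against 798.7 in its adjacent liver. The nodule read 753.0 against 727.8, and the female HCC 635.7 against 761.0. The pair differences were thus 0.05, 0.66 and -0.25, and the lesion difference was 0.15 ± 0.23 (adjusted p = 0.870). In the male pair all 3 Cdk4 probe sets were higher in the HCC, by 0.48 to 0.78. In the female HCC pair the other probe sets read 0.50 and 0.02, and in the nodule pair -0.01 and -0.09, so neither pair has a shared direction.

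Markers of T and NK cells (6 of 7 on the array, 1 past the filter) summed to 584.4 in the nodule against 418.7, to 311.9 in the female HCC against 192.3, and to 376.9 in the male HCC against 471.3. No marker of that list was below the added constant on all arrays. The sum moved in the direction of Ccnd2 in all 3 pairs and of Cdk6 in 2 pairs. Members of the list did not move together. Cd8a was higher in each lesion, at 249.5, 163.6 and 114.8 against 142.8, 138.1 and 49.3 in the order nodule, male HCC, female HCC. Cd3e was lower in each, at 88.0, 22.9 and 51.0 against 192.2, 107.3 and 51.3. The part of these markers in the Ccnd2 and Cdk6 values was not tested. Across the 10 arrays the log2 signals of Ccnd2 and Cdk6 correlated at Pearson r = 0.844, those of Ccnd2 and Cdk4 at -0.746. By the inferred pairing, lesion and adjacent arrays share an animal, and the hybridisation spikes part young from aged arrays. These correlations are descriptions.

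Of the INK4 inhibitors, Cdkn2b, which encodes p15, had the largest lesion difference of the 9 tested genes. Its signals were 355.2 in the nodule, 728.9 in the male HCC and 619.4 in the female HCC, against 63.7, 14.2 and 95.6 in their adjacent livers. The young pools read 49.7 and 12.7 in wild-type and 14.3 and 53.6 in knockout liver, female before male. All 3 lesions lay above all 7 other arrays, as did 2.43% of tested genes, and the 7 arrays without a lesion overlapped across genotype and age. By group mean the order was HCC (674.2 ± 77.4, SD, n = 2), nodule (355.2), adjacent liver (57.8 ± 41.0, n = 3), young knockout (34.0 ± 27.8, n = 2) and wild-type liver (31.2 ± 26.2, n = 2), and the last 3 of these did not differ beyond their spread.

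The lesion comparisons asked which of these genes differ between a lesion and the liver around it. Over the 2 HCC pairs the Cdkn2b difference was 3.54 ± 0.54 (limma adjusted p = 0.0640, unadjusted p = 0.00013), and over all 3 pairs it was 3.10 ± 0.50 (adjusted p = 0.190, unadjusted p = 0.000636). Neither passed. Without the filter the adjusted p was 0.0919 for HCC and 0.255 for all lesions. Since Cdkn2b passed the filter only through its lesion signals, its p-values in lesions and its place among the tested genes are descriptions and no independent support. By pair the difference was 2.21 for the nodule, 4.59 for the male HCC and 2.50 for the female HCC. The male value is the least certain in size, since its adjacent liver lay below the added constant of 16.8. In the HCC comparison 0 of 9 genes were called, where 0.0635% of all genes were called higher and 0.0181% lower, 0.0816% in either direction. An unadjusted p below 0.05 was reached there by 1 member, Cdkn2b, and by 7.65% of all genes. With all lesions 0 of 9 genes were called, where 0.00906% of all genes were called higher and 0.0% lower. Unadjusted p was below 0.05 for 2 members, Cdkn2b and Cdk6, and for 9.93% of all genes.

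The 3-pair fit depended on the male pair. Without the male HCC the Cdkn2b difference was 2.35 with an adjusted p of 0.0422, and without the male adjacent liver it was 2.35 with 0.0109. Those fits called 180 and 170 genes in place of 1. Over the other arrays left out, adjusted p ran from 0.0677 to 0.594. By size alone, Cdkn2b was at least 1 log2 unit higher in every lesion, as were 0.417% of tested genes, and in both HCC, as were 0.906%. Such a step downward was seen in 0 members, and in 0.136% of genes over all lesions and 0.598% over the HCC. In 3 pairs, 2 members were higher throughout (Cdk6 and Cdkn2b), where 16.0% of all genes were, and 2 were lower throughout (Ccnd1 and Cdkn1b), where 16.4% were. The median of the 9 genes was 0.15 in lesions, beside 0.00 over all tested genes.

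Cdkn2b has 1 probe set, so no second reading was at hand. Stellate and fibroblast markers (7 of 7 on the array, all past the filter) also summed higher in each lesion, at 9353.2 against 6120.8, 13970.6 against 13331.6 and 13528.1 against 9290.0 in the order nodule, male HCC, female HCC. Members of that list did not move together, since Rgs5 and Reln were lower in all 3 lesions while Col1a1, Col3a1 and Acta2 were higher. In the young pools the list summed to 7333.1 to 10487.8. Endothelial markers (7 of 7 on the array) summed higher in each lesion as well, at 5010.1 against 3604.7, 10198.8 against 6787.8 and 4207.6 against 3950.8. In the female HCC pair this list split. Stab2, Kdr and Oit3 were lower there, and Pecam1, Cdh5, Lyve1 and Clec4g were higher. The 3' probe set of 18S rRNA, a trace of the labelling of ribosomal RNA, was lower in each lesion, at 20.9, 19.5 and 21.5 against 79.9, 57.3 and 79.1. The part of any of these in the Cdkn2b values, or in those of Cdk6, was not tested. The genes whose log2 signals followed Cdkn2b most closely over the 10 arrays were Kctd5 (Pearson r = 0.949), the mitotic kinase Plk1 (0.944), Tpra1 (0.912), the laminin receptor subunit Itga6 (0.911) and Morc4 (0.911). Itga6 read 1526.8, 1167.4 and 2486.8 in the lesions and 60.6 to 314.6 elsewhere. For Ccnd1 the closest were Nol12 (0.919), the glutamine carrier Slc1a5 (0.919), Ebna1bp2 (0.916), Mrpl52 (0.908) and Ap2s1 (0.906).

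**Figure D2:**
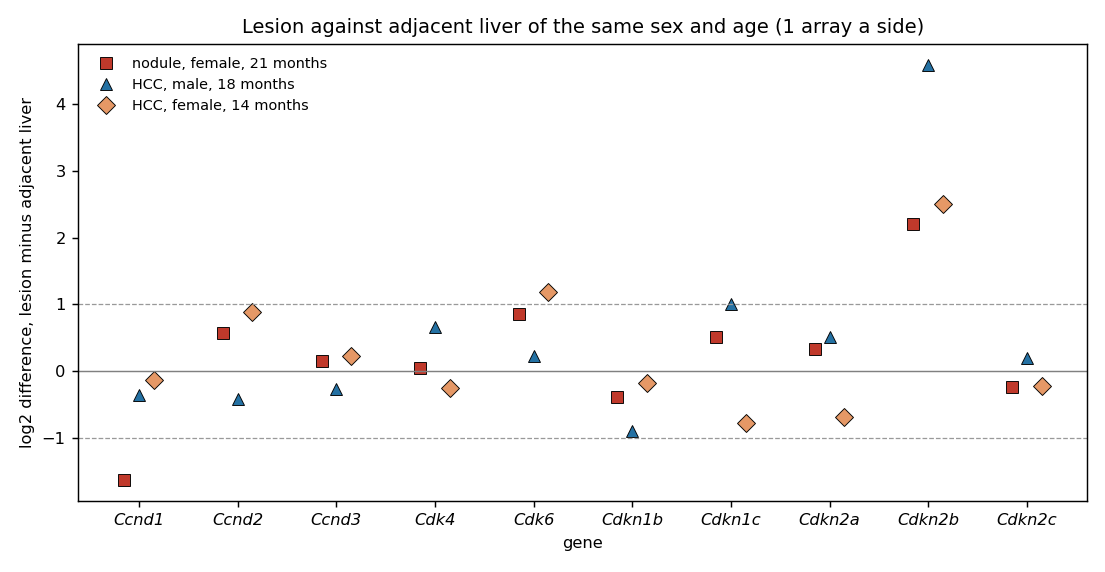
Log2 difference (signal plus 16.8) of lesion minus adjacent liver for each gene in each of the 3 pairs, 1 array a side, with dashed lines at 1 and -1. Cdkn2b stands at 2.21, 4.59 and 2.50, and Ccnd1 at -1.63 in the nodule pair.

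Cdkn2a, the neighbour of Cdkn2b, encodes p16Ink4a and p19Arf. Its 1 probe set read 5.6 and 6.9 in wild-type and 36.8 and 19.7 in young knockout liver, female before male. The lesions read 49.1 (nodule), 25.5 (male HCC) and 13.1 (female HCC), against 35.6, 12.9 and 31.3 in their adjacent livers. All 8 knockout arrays were above both wild-type pools, as in 8.05% of the tested genes, which do not include Cdkn2a. Of its 10 signals, 4 lay below the added constant, so these values mark a low level and were not tested. The nodule and male HCC were above their adjacent liver and the female HCC below, unlike Cdkn2b in the last pair. The labels do not say which of the 2 transcripts the probe set reads.

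Cdkn2c, which encodes p18, was close to level. Its signals were 915.4 and 650.4 in wild-type and 1146.6 and 755.6 in knockout liver, with the female pool higher in both genotypes. The nodule, male HCC and female HCC read 950.5, 881.0 and 980.0 against 1119.5, 767.1 and 1142.8. The genotype difference was 0.27 ± 0.23 (adjusted p = 0.564) and the lesion difference -0.08 ± 0.19 (adjusted p = 0.918).

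Of the Cip/Kip inhibitors, Cdkn1b differed most between young and aged liver. Its signals were 454.6 and 483.7 in wild-type and 391.6 and 567.6 in young knockout liver, female before male. They were 743.4, 1072.0 and 1257.3 in adjacent liver at 21, 18 and 14 months, and 567.4, 570.0 and 1117.7 in the lesions paired with them. Every adjacent liver was above both young knockout pools, as in 17.1% of all tested genes. Each lesion was below its adjacent liver, as in 16.4% of them. This comparison asked how adjacent aged knockout liver differs from young knockout liver. The Cdkn1b difference was 1.11 ± 0.30 (limma adjusted p = 0.386, unadjusted p = 0.00838, 3 tissues against 2 pools) and did not pass.

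In that comparison 0 of 9 genes were called, and 0.0% of all genes. An unadjusted p below 0.05 was reached by 1 member, Cdkn1b, and by 12.3% of all genes. All adjacent livers lay above both young knockout pools in 1 member and in 17.1% of all genes, and below them in 2 members (Ccnd3 and Cdk4) and in 10.7%. Ccnd3 differed by -0.29 ± 0.23 and Cdk4 by -0.28 ± 0.23, Ccnd2 by 0.50 ± 0.33 and Ccnd1 by 0.16 ± 0.54, none of which passed. The median of the 9 genes was 0.01, beside 0.08 over all genes, and it was -0.17 beside -0.10 after centring on the 75th percentile. The call count depended on single arrays, at 441 genes without the young knockout female pool, 110 without the 21-month and 9 without the 14-month adjacent liver, with no member among them. Age, pooling and the difference in hybridisation spikes cannot be told apart here. B and plasma cell markers (5 of 6 on the array, all 5 past the filter) summed to 675.6 to 692.6 in the young knockout pools and 1313.9 to 2176.9 in adjacent liver. Much of this was Jchain, at 243.3 and 254.8 against 747.4 to 1601.5. Cd79a was also higher in every adjacent liver, while Ms4a1, Cd79b and Mzb1 overlapped. The part of these markers was not tested.

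The lesion difference of Cdkn1b was -0.48 ± 0.22 (adjusted p = 0.534), at -0.38 in the nodule, -0.89 in the male HCC and -0.17 in the female HCC. B and plasma cell markers also summed lower in each lesion, at 907.0 against 1790.9, 1978.4 against 2176.9 and 976.5 against 1313.9 in that order. Much of this was Jchain, at 519.5, 1465.9 and 388.7 against 1154.7, 1601.5 and 747.4, and Mzb1 was lower in each lesion too. The other markers did not move together, since Ms4a1, Cd79a and Cd79b were higher in the female HCC and Ms4a1 in the male HCC. The part of these markers was not tested here either. The Cdkn1b genotype difference was 0.01 ± 0.25 (adjusted p = 0.989), with the sexes at -0.21 and 0.22. The second Cdkn1b probe set was dim, at 4.7 to 70.8.

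Cdkn1c, an imprinted gene, was measured near the filter. Its signals were 206.7 and 121.2 in wild-type and 95.3 and 126.3 in knockout liver, female before male. The nodule, male HCC and female HCC read 107.7, 107.4 and 80.3 against 70.6, 45.5 and 150.4 in adjacent liver, so the female HCC went against the other pairs. The genotype difference was -0.47 ± 0.45 (adjusted p = 0.604) and the lesion difference 0.24 ± 0.51 (adjusted p = 0.911).

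**Figure D3:**
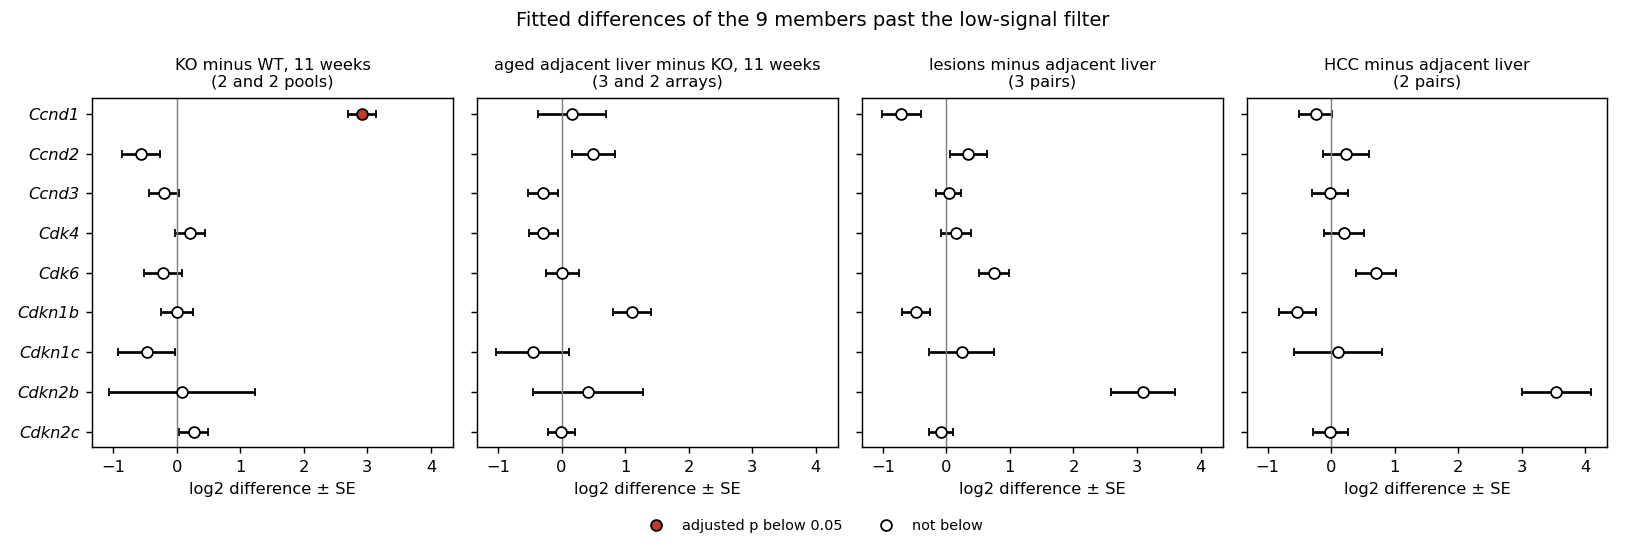
Fitted log2 difference ± SE of the 9 tested genes in 4 comparisons, filled where the limma adjusted p is below 0.05. Ccnd1 at 2.92 in knockout against wild-type liver is the filled point, and Cdkn2b at 3.10 and 3.54 in the lesion comparisons is not filled.

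Ccnd1 was lower in the nodule than in its adjacent liver by the largest step of any pair. The nodule signal of 2882.1 stood against 8984.2, a difference of -1.63 with 1 array a side and no test. The other Ccnd1 probe sets gave -1.58 and -1.68. A difference of at least 1 log2 unit downward in that pair was seen in Ccnd1 and in 3.86% of all genes, and upward in Cdkn2b and in 7.81%. In the male and female HCC Ccnd1 differed by -0.36 and -0.13, while the other probe sets read 0.27 and 0.05 in the male and 0.44 and 0.16 in the female, so the probe sets do not share a direction in HCC. Over all 3 pairs the difference was -0.71 ± 0.31 (adjusted p = 0.528), and over the HCC pairs -0.25 ± 0.26 (adjusted p = 0.917).

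Cdkn1a, a Cip/Kip inhibitor outside the 10 genes and a target of p53, is given for comparison. It read 1579.2 and 151.8 in wild-type and 759.1 and 2820.5 in knockout liver, female before male, and 2169.7, 6071.3 and 3251.9 in the nodule, male HCC and female HCC against 1329.8, 4609.5 and 1538.0. Its lesion difference was 0.72 ± 0.20 (adjusted p = 0.344).

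Partners of the 10 genes in the RB pathway and at the entry to S phase were read from a list of 27 genes, 24 of them tested. In the genotype comparison 0 were called by limma, 2 had an unadjusted p below 0.05, as had 19.5% of all tested genes, and the median was 0.06 beside -0.05 over all genes. The 2 were Cks1b, a CDK-binding protein that helps SCF-Skp2 mark p27 for destruction (1.05 ± 0.24, adjusted p = 0.0848), and the F-box protein Fbxo4 (0.97 ± 0.26, adjusted p = 0.122). Both were called with quantile normalization, a setting that called 331 of all tested genes higher, against 78 without it. In lesions 0 of the 24 were called, 6 had an unadjusted p below 0.05, all higher, where 9.93% of all genes had one, and the median was 0.09. Ccne1, the cyclin E that acts after cyclin D, read 340.1, 956.1 and 260.5 in the nodule, male HCC and female HCC against 126.2, 529.3 and 52.2 (1.39 ± 0.30, adjusted p = 0.268). E2f3 read 487.7, 491.7 and 455.1 against 261.8, 182.2 and 265.8 (0.98 ± 0.24, adjusted p = 0.302). Each lesion was above its own adjacent liver for both genes. Of the 24, 19 were positive and 5 negative in lesions, but 14 and 10 after centring on the 75th percentile.

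Of 22 S-phase genes that E2F drives, 21 were on the array and 17 tested. In knockout liver at 11 weeks, where Ccnd1 rose, 0 were called by limma and 8 had an unadjusted p below 0.05, 6 higher and 2 lower, where 19.5% of all genes had one. The median was 0.69 with 14 positive and 3 negative, beside -0.05 over all genes. Mcm6, of the replicative helicase, read 55.5 and 243.7 in wild-type and 259.5 and 644.8 in knockout liver, female before male (1.64 ± 0.32, adjusted p = 0.0610). Fen1, a flap endonuclease, went the other way, at 802.4 and 449.2 against 105.5 and 323.9 (-1.60 ± 0.50, adjusted p = 0.161). With quantile normalization 3 of the 17 were called higher, and after centring on the 75th percentile 1. Those settings called 331 and 242 of all tested genes higher, against 78 without them. In lesions the median was 0.17, 0 were called and 2 had an unadjusted p below 0.05, beside 9.93% of all genes. Rrm2, a subunit of ribonucleotide reductase, read 1427.0, 1323.2 and 1261.9 in the lesions against 243.7, 610.0 and 502.1 (1.62 ± 0.30, adjusted p = 0.209), at least 1 log2 unit in every pair.

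Factors known to silence or switch on the Cdkn2a-Cdkn2b locus, such as Polycomb proteins, made a list of 16 genes, all tested. In lesions 0 were called by limma, 1 had an unadjusted p below 0.05 (9.93% of all genes), and the median was 0.00. That gene was Tbx3, a T-box repressor, which read 462.2, 495.6 and 357.9 in the lesions against 758.4, 670.5 and 705.9 (-0.69 ± 0.21, adjusted p = 0.379). In aged adjacent liver against young knockout liver 0 were called, 4 had an unadjusted p below 0.05 (12.3% of all genes), all higher, and the median was 0.37 beside 0.08 over all genes. Bmi1, a Polycomb repressor of the locus, read 2190.0, 1905.9 and 2264.4 in adjacent liver and 1001.5 and 1227.8 in the young knockout pools (0.92 ± 0.23, adjusted p = 0.386). Its adjacent livers lay above both pools without overlap, as did those of 17.1% of all tested genes.

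Genes that induce D-type cyclins or report on those inducers numbered 18, with 14 tested. In the genotype comparison 1 was called higher and 1 lower, where 0.707% and 0.743% of all tested genes were. The median was 0.03, with 7 positive and 7 negative. Jun, a subunit of AP-1, rose by 1.63 ± 0.25 (limma adjusted p = 0.0403), from 373.9 and 365.3 to 976.6 and 1417.8, female before male. Notum, a feedback inhibitor of Wnt signalling and a beta-catenin target, fell by 1.64 ± 0.23 (adjusted p = 0.0332), from 2287.6 and 1906.1 to 660.5 and 657.2. Neither was called without the intensity trend (adjusted p = 0.208 each), without the sex term (0.101 and 0.0817), with the mean of all probe sets (0.0582 and 0.0525), in the model over all 10 arrays (0.184 and 0.267) or when any young pool was left out (0.372 to 0.804 and 0.475 to 0.804). Ccnd1 kept its call with the mean of all probe sets (adjusted p = 0.0181). In lesions 0 were called and 3 had an unadjusted p below 0.05, 1 higher and 2 lower, beside 9.93% of all genes. Myc was the higher one, at 1069.5, 590.0 and 561.0 in the lesions against 396.0, 495.0 and 271.2 (0.88 ± 0.27, adjusted p = 0.379). Junb (-0.73 ± 0.19, limma adjusted p = 0.326) and Axin2 (-0.83 ± 0.32, limma adjusted p = 0.465) were the lower ones. In aged adjacent liver the AP-1 gene Fos and its relative Junb differed by 1.92 ± 0.48 and 1.55 ± 0.38 from young knockout liver (adjusted p = 0.386 each).

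FOXO factors induce Cdkn1b, and 11 FOXO genes and targets were tested beside it. In the genotype comparison 1 of them was called lower, where 0.743% of all tested genes were, and 3 were positive and 8 negative. G6pc, the glucose-6-phosphatase of the liver, fell by 1.82 ± 0.19 (limma adjusted p = 0.0147), from 18953.5 and 9152.1 to 5559.4 and 2480.6. It was not called without the intensity trend (adjusted p = 0.207), without the sex term (0.184), in the model over all 10 arrays (0.324) or when any young pool was left out (0.377 to 0.893). Its difference was -1.14 without the male knockout pool and -1.21 without the female wild-type pool. The median was -0.32, while Cdkn1b differed by 0.01. In lesions 0 were called, 3 had an unadjusted p below 0.05 (9.93% of all genes), all lower, and the median was -0.23. Pck1, a gluconeogenic enzyme, read 11308.5, 30402.1 and 8558.4 in the lesions against 29529.2, 34138.6 and 29003.8 (-1.10 ± 0.32, adjusted p = 0.374).

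Imprinted genes near Cdkn1c numbered 10, with 9 on the array and 7 tested. In lesions 0 were called by limma, 1 had an unadjusted p below 0.05 (9.93% of all genes), and the median was 0.23 with 7 positive, 5 after quantile normalization. Cd81, a tetraspanin, read 17911.7, 13745.1 and 16465.7 in the lesions against 8763.7, 9036.6 and 9445.5 (0.81 ± 0.19, adjusted p = 0.280). Igf2, the fetal growth factor, read 2464.5 in the male HCC against 31.0, and 422.0 and 238.6 in the nodule and female HCC against 235.8 and 212.7. Cdkn1c did not share the direction of Igf2 in the female HCC. In the genotype comparison 0 of the 7 were called and 0 had an unadjusted p below 0.05, beside 19.5% of all genes.

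**Figure D4:**
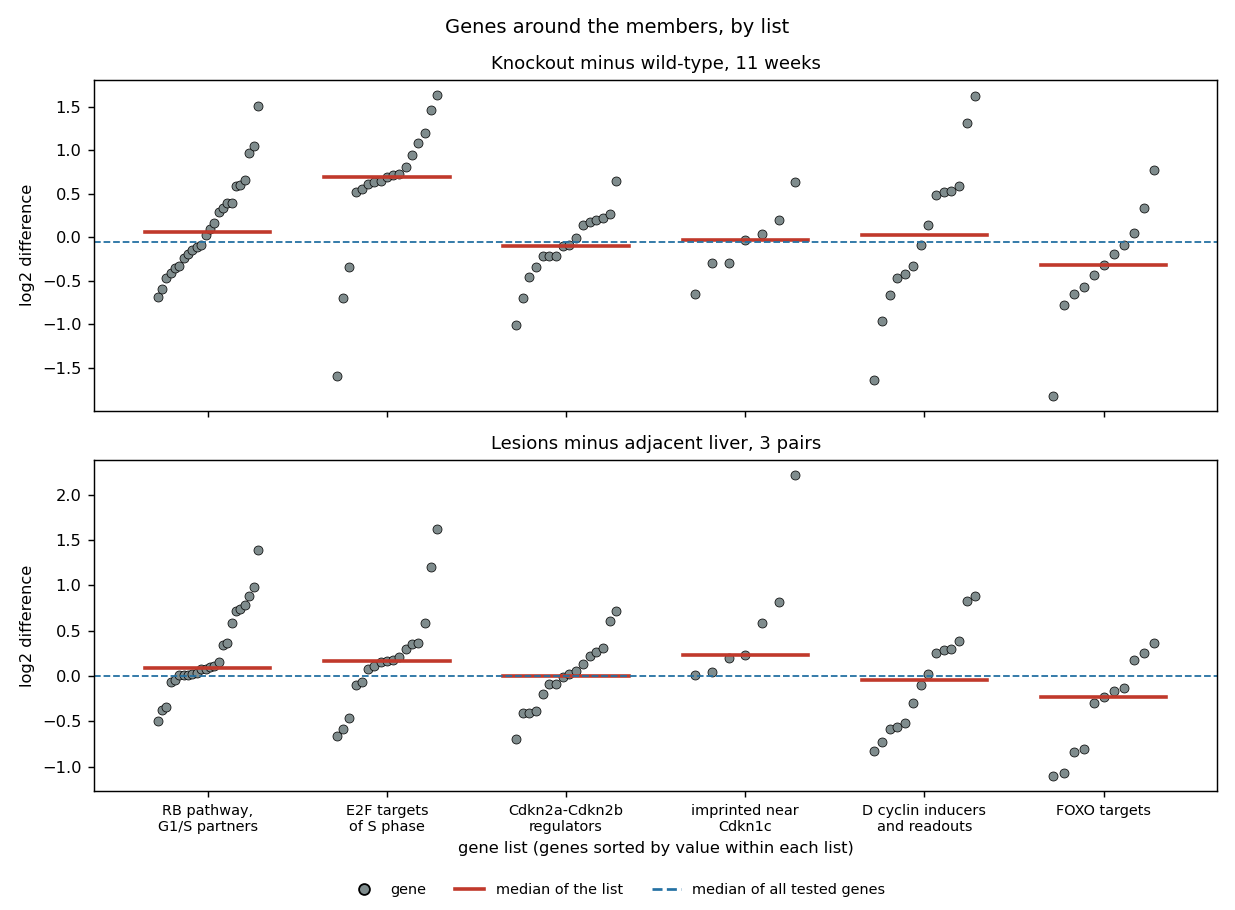
Log2 difference of every tested gene of the 6 lists, sorted within each list, for knockout minus wild-type liver at 11 weeks (upper) and lesions minus adjacent liver (lower). Red bars are list medians and the dashed line is the median of all 11032 tested genes. The S-phase list has its median at 0.69 in the upper panel and at 0.17 in the lower.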

How the data were processed

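Each array measured biotin-labelled RNA made from 5 ug of liver total RNA, per the labels' protocols, and values were computed in GCOS, per the submitters' processing notes. The deposited values are intensity, 1 linear signal per probe set, and the trimmed mean of every array (2% left out at each end) was 500. The authors' settings and any detection calls are not given in the sources used here.

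Of 45101 probe sets, 34945 had a single gene in the platform annotation, 932 had several and 9224 had none, with the 64 controls counted among the last. A constant of 16.8, the 20th percentile of all values, was added before log2. A gene was kept where the mean log2 value of its highest probe set exceeded that of a signal of 91, the median. limma 3.58.1 (R 4.3.3) was fitted over 11032 genes with empirical Bayes variances shared among genes, an intensity trend and Benjamini-Hochberg adjustment. Sex was a term for genotype and for aged against young liver, and the pair was a term for lesions. The fits left 1 residual degree of freedom for genotype and HCC, and 2 for lesions and aged liver. Differences are on the log2(signal + 16.8) scale, which understates changes of dim genes.

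The members and lists were chosen with earlier results of these data known. Text names all members, up to 4 genes per list and comparison with the largest differences, and the 5 genes closest to a member whose log2 signals span at least 2 units. Simulated data with 11032 genes were used to test the fits, 10 per comparison. Of genes changed 4-fold, 49.7% were recovered for genotype, 67.8% for HCC, 58.9% for lesions and 35.2% for aged liver. Of genes changed 2-fold, 6.9%, 10.1%, 1.7% and 0.2% were recovered in that order. False calls were 14.4%, 22.2%, 5.46% and 5.60% of calls. Alternatives were other constants, scalings, filters, probe set rules, variance and design choices, and leaving out each array. Promoters came from RefSeq (GRCm38.p6). The number of arrays limits the precision.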

Additional observations from a re-analysis of the deposited data

Results flagged for a closer look

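In the genotype comparison Cdkn2b differed by -1.10 in females and by 1.25 in males. The sexes went opposite ways with 1 pool per sex and genotype, and that difference was not tested. The 4 signals, between 12.7 and 53.6, were near the added constant of 16.8. In the HCC comparison Cdkn1c differed by -0.78 in the 14-month female and by 1.0 in the 18-month male, opposite ways in 1 pair each, and this difference was not tested either. Its signals in those tissues ran from 45.5 to 150.4.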

How the results depend on the processing

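For knockout against wild-type liver, 160 genes were called, 78 higher and 82 lower. There were 598 with quantile normalization, 341 (242 higher, 99 lower) after centring each array on its 75th percentile, 38 with the mean of all probe sets, 1 without the intensity trend, 1 in a model over all 10 arrays and 2 with no replicate block (the sex term dropped), and 0 to 6 when a pool was left out. The 1 member called, Ccnd1, became 0 in the last 4 of these settings, and its difference stayed positive in all. For HCC, 9 genes were called, 3 with quantile normalization and 4 after centring (all higher), 16 without the filter, 0 without the trend, 1 in the model over all arrays, 0 with no replicate block (the pair term dropped) and 0 to 3 leaving out an array. For all lesions, 1 gene was called, 3 after centring (2 higher), 0 with the mean of probe sets, 3 without the filter, 5 in the model over all arrays, 0 with no replicate block and 2 to 180 leaving out an array, with 0 to 1 members among them. For aged adjacent against young knockout liver, 0 genes were called and 0 to 441 leaving out an array. Centring moved the median of all genes by 0.15 for genotype and by -0.18 for aged liver. The cause of these shifts was not tested.

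Of the members, the differences that changed sign had not passed. With the mean of all probe sets, Cdkn1b read -0.27 for genotype, Ccnd1 0.0714 for HCC, Ccnd3 -0.54 for lesions, and Ccnd1 -0.0638 and Ccnd3 0.24 for aged liver. After centring, Ccnd3 read -0.0325 for lesions, and Ccnd1 -0.0215 and Cdk6 -0.17 for aged liver. Cdk6 read -0.0893 there with quantile normalization, and Cdkn2c 0.0174 in the model over all arrays and 0.0927 with no replicate block. When an array was left out, genotype values ran from -0.48 to 0.0655 for Ccnd3, -0.0613 to 0.48 for Cdk4, -0.66 to 0.23 for Cdk6, -0.35 to 0.37 for Cdkn1b and -0.98 to 1.13 for Cdkn2b. For HCC they ran from -1.20 to 0.21 for Ccnd1, -0.13 to 0.64 for Ccnd2, -0.34 to 0.17 for Ccnd3, -0.22 to 0.65 for Cdk4, -0.95 to 0.24 for Cdkn1b, -0.16 to 0.68 for Cdkn1c and -0.20 to 0.19 for Cdkn2c. For lesions they ran from -0.0645 to 0.19 for Ccnd3, -0.10 to 0.35 for Cdk4 and -0.14 to 0.75 for Cdkn1c. For aged liver they ran from -0.50 to 1.05 for Ccnd1, -0.24 to 0.35 for Cdk6, -1.20 to 0.11 for Cdkn1c, -1.18 to 1.61 for Cdkn2b and -0.0194 to 0.0213 for Cdkn2c. Cdkn2b stayed positive in HCC and lesions in every setting run, and its HCC difference was 3.81 with an added constant of 8.4 and 3.17 with 33.6.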
